A study of Homo sapiens with 2 samples.

Results

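*NT5E* and 9 other genes that make, move, remove or sense extracellular adenosine were described in human corneal epithelial cells after miR-184 transfection. Each of the 10 was read by 1 feature carrying only its symbol on the array (Affymetrix Human Transcriptome Array 2.0, per the methods), among 22368 genes named in this way. The set was chosen by the difference of *NT5E*, the largest rise on these arrays, so these differences are a description and support nothing. The cells were HCECs, a corneal epithelial line immortalized with SV40 and grown in DMEM/F12 with serum, insulin and EGF. They received 50 nM miR-184 mimic, a synthetic form of the microRNA, or the negative control (NC) with Lipofectamine RNAiMAX, and total RNA was collected at 48 h. There was 1 array per condition, so no value below has an error or a *P*-value, and an effect of miR-184 cannot be told apart from a difference between the 2 cultures. Signals are on a log2 scale, and a difference is the miR-184 signal minus the NC signal. Where a pair of signals is given without names, miR-184 comes first and NC second. In bulk RNA, fewer cells that express a gene and less RNA in each cell cannot be told apart.

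Extracellular adenosine is made stepwise from ATP that cells release. Ecto-enzymes of the NTPDase family remove phosphates from ATP and ADP, and CD73, the product of *NT5E*, turns the resulting AMP into adenosine at the cell surface. Adenosine then acts on G protein-coupled receptors, or is carried into the cell and converted to inosine or back to AMP. The pathway is known for limiting inflammation and for its activity in hypoxic and injured epithelia.

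The sequence of the transfected microRNA is shown because it defines the treatment. It is the RefSeq mature form (GRCh38.p14, chr15:79209840-79209861, + strand), written 5′ to 3′ with the seed, bases 2 to 8, in capitals. The labels do not give the strands of the mimic itself.
hsa-miR-184: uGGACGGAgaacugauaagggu
No other of the 2370 mature human microRNA names in the table carried this seed. Sites for it in the transcripts of the members were not analysed here.

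Across all genes the median difference was 0.04, and the Pearson correlation between the arrays over 65854 features was 0.989, a description across features. The median feature read 3.68 with miR-184 and 3.61 with NC, which is the level that low features are set against below. The epithelial markers *KRT18*, *KRT8*, *CDH1*, *EPCAM* and *KRT5* read between 12.35 and 16.83 in both arrays. Of the 10 epithelial markers with a feature, *KRT5* (difference 0.88) and *CDH1* (0.75) were past 1.5 times upwards and none was lower by that much. Among all genes, 3.74% were higher and 4.16% lower by that much, or 6.24% and 7.74% of those at or above the median signal. Of the 10 markers, 5 had a mean signal below that median. The part of *KRT5* and *CDH1* in the difference of *NT5E* was not tested. *KRT14* (3.75 and 3.56) and *KRT15* (3.89 and 3.94) were near the median feature. In contrast to the bright markers, *PAX6*, *KRT3* and *KRT12*, which define corneal epithelium, also lay close to the median feature, between 3.44 and 3.82. *TP63* had no feature of its own.

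Of the 10 adenosine genes, 2 were higher by 1.5 times or more with miR-184, *NT5E* and the adenosine kinase gene *ADK*. The deaminase gene *ADA* was lower by that much, and the other 7 lay between -0.14 and 0.16. Over all genes, 3.74% were higher and 4.16% lower by 1.5 times or more, shares from the contrast that chose *NT5E*, so nothing is read from the comparison. At 2 times only *NT5E* was past the threshold, upwards, as were 0.984% of all genes, and 1.35% were lower by that much. The median of the 10 differences was 0.01, and that of the 9 without *NT5E* was -0.04.

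**Figure D1:**
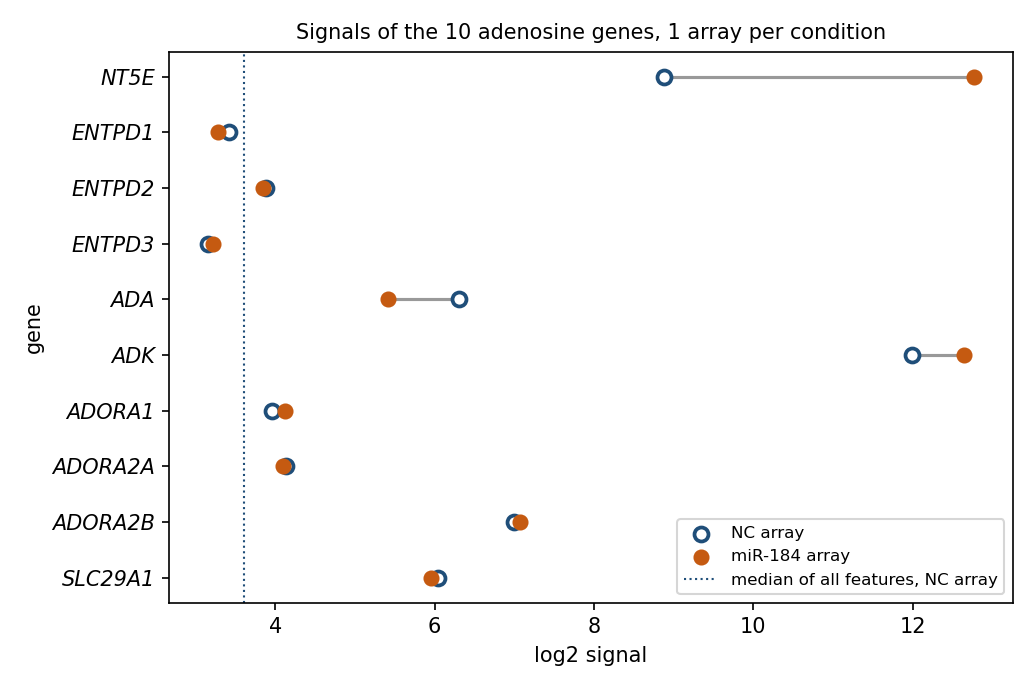
Log2 signal of each of the 10 adenosine genes in the NC array (open circles) and the miR-184 array (filled circles), with 1 array per condition and the median of all features in the NC array as a dotted line. The circles stand apart for *NT5E* (12.77 and 8.88), *ADA* (5.42 and 6.31) and *ADK* (12.65 and 11.99), miR-184 first, and they nearly coincide for the other 7.

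*NT5E* encodes CD73, which is held at the outer membrane by a lipid anchor and hydrolyses AMP to adenosine and phosphate. Its signal was 8.88 with NC and 12.77 with miR-184. This difference of 3.89 corresponds to 14.8 times. The NC signal was already 5.27 above the median feature and higher than that of 87.7% of genes, and the miR-184 signal was higher than that of 98.3%. Both signals were far from the upper limit of the scale, 19.93, which 20 features reached in each array. The next largest difference of any named gene was 2.83, that of *ANKRD1*. For 602 other genes with a mean signal within 0.5 of that of *NT5E*, the 5th and 95th percentiles of the difference were -0.76 and 0.83. Since *NT5E* was taken as the largest rise, its place above them was fixed by that choice.

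Genes that began at the level of *NT5E* are given for scale, again below it by choice. Of 1091 other genes with an NC signal within 0.5 of that of *NT5E*, 84 were higher and 114 lower by 1.5 times or more with miR-184, with a median difference of -0.05. Small non-coding RNAs and uncharacterised loci aside, the 5 nearest to *NT5E* in their rise were *UBASH3B* (difference 1.60), *TSPAN2* (1.52), *MCAM* (1.47), *MRFAP1* (1.43) and *CLIP1* (1.42). *UBASH3B* encodes a tyrosine phosphatase, *TSPAN2* a tetraspanin and *MCAM* an adhesion molecule of the immunoglobulin family. The largest of these differences was 2.29 below that of *NT5E*. Likeness here is the size of the difference over 2 arrays from a similar start.

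**Figure D2:**
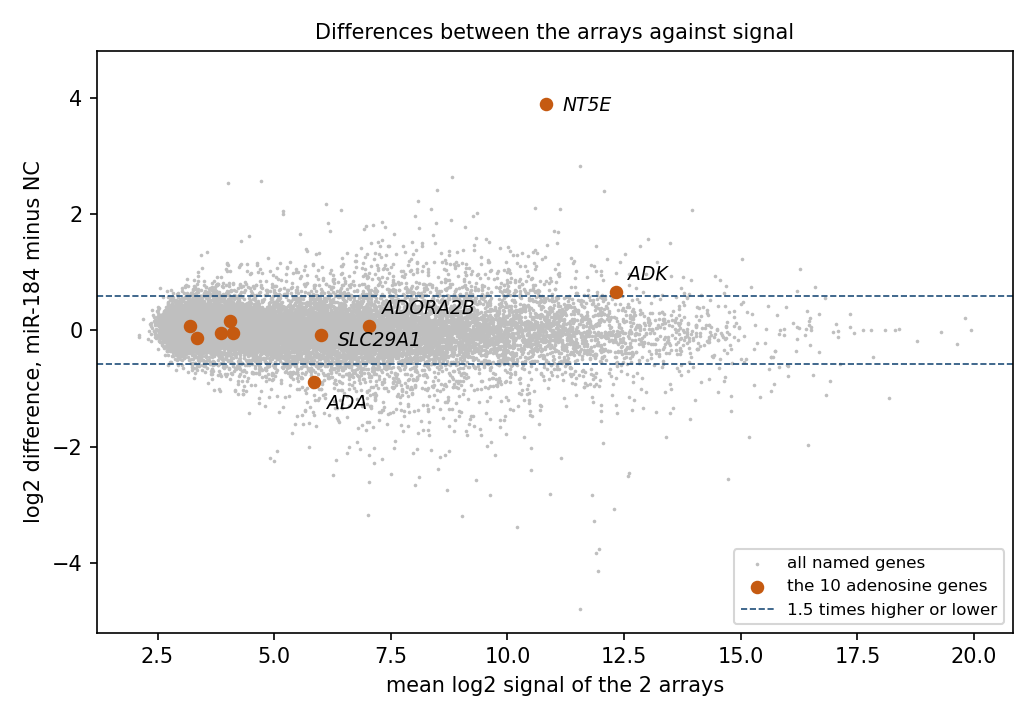
Log2 difference, miR-184 minus NC, against the mean log2 signal of the 2 arrays for 22368 genes (grey) and the 10 adenosine genes (orange), with dashed lines at 1.5 times higher or lower. *NT5E* lies above every other point at a difference of 3.89, *ADK* lies just above the upper line at 0.66, and *ADA* lies below the lower line at -0.89.

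CD73 is also carried by fibroblasts, mesenchymal stromal cells, endothelium and lymphocytes, so markers of those cells are given beside *NT5E*. Of 10 stromal and mesenchymal markers 9 had a feature, none was 1.5 times higher or lower, and their summed linear signal was 142 with miR-184 and 157 with NC. Among all genes, 3.74% were higher and 4.16% lower by that much. Of the 9 markers, 8 had a mean signal below the median of all genes. Below that median the differences of all genes had a standard deviation of 0.20, beside 0.46 at or above it, so this count says little. *THY1*, which such cells carry together with CD73, read 3.57 and 3.43, near the median feature. *ENG* was the brightest of them at 5.73 with miR-184 and 6.08 with NC. The 4 leukocyte markers with a feature summed to 42.5 and 36.8, and *PTPRC* read 3.16 and 3.09. Of them *CD14* passed 1.5 times, at 3.78 with miR-184 and 3.19 with NC. Of 3 endothelial markers, *PECAM1* (2.62 and 2.52) and *VWF* (3.47 and 3.38) were below the median feature, whereas *CDH5* was well above it at 6.77 with miR-184 and 8.19 with NC. *CDH5* made most of the endothelial sum, which was 126 with miR-184 and 307 with NC, so that it was lower where *NT5E* was higher. Its part in the difference of *NT5E* was not tested.

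The 3 NTPDase members, which act upstream of CD73, had low signals. *ENTPD1* encodes CD39, which takes ATP and ADP to AMP, and read 3.28 with miR-184 and 3.42 with NC. *ENTPD2*, whose product prefers ATP, read 3.84 and 3.89. *ENTPD3*, whose product hydrolyses ATP and ADP, read 3.22 and 3.15. All 3 lay within 0.5 of the median feature in both arrays, with differences of -0.14, -0.05 and 0.07. The feature of *ENTPD1* carried its symbol but no gene identifier in the platform annotation, unlike the other 9 members.

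The genes for removal of adenosine differed in opposite directions. *ADA* encodes adenosine deaminase, which converts adenosine to inosine. Its signal was 5.42 with miR-184 and 6.31 with NC, a difference of -0.89 (1.85 times lower), which ranked 397 from the lowest of all genes. Of 1937 genes of similar mean signal, 50 (2.58%) were at least as low. *ADK* encodes adenosine kinase, which phosphorylates adenosine back to AMP. It read 12.65 with miR-184 and 11.99 with NC, a difference of 0.66 (1.58 times higher), just past the threshold, which ranked 629 from the highest of all genes. Of 308 genes of similar mean signal, 15 (4.87%) were at least as high. The members were chosen with earlier results of these data known, so the shares for *ADA* and *ADK* are descriptions and nothing is read from them. In both arrays *ADK* was among the brightest features, above 97.2% of genes in the NC array.

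*SLC29A1* encodes ENT1, the equilibrative transporter that moves adenosine across the plasma membrane in either direction. It read 5.96 with miR-184 and 6.04 with NC, a difference of -0.08. Among the receptors only *ADORA2B* was clearly above the median feature. *ADORA2B* encodes the low-affinity receptor that raises cAMP through Gs, and read 7.072 with miR-184 and 7.002 with NC, a difference of 0.07. *ADORA2A*, the high-affinity Gs-coupled receptor, read 4.10 and 4.14. *ADORA1*, which lowers cAMP through Gi, read 4.12 and 3.96. *ADORA3*, another Gi-coupled receptor that was not a member, read 3.19 and 3.16. The 4 receptor genes thus had differences between -0.04 and 0.16, without an error to set them against. Antisense genes at 3 member loci, *ENTPD1-AS1*, *ENTPD3-AS1* and *ADORA2A-AS1*, read between 3.50 and 3.82 in both arrays.

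Other genes of adenosine and nucleotide handling were taken from 10 lists of 121 genes, of which 109 had a feature of their own. With miR-184, 4 of them (3.67%) were higher and 8 (7.34%) lower by 1.5 times or more, with a median of 0.03 beside 0.04 over all genes. All 12 were among the 60 list genes whose signal reached the median of all genes (6.67% and 13.3% of them), beside 6.24% and 7.74% of all genes that bright. The lists were chosen with earlier results of these data known, and the lower genes include *ALPP* and *ALPG*, which are not separate observations. Nothing is therefore read from these shares, and the lists were not tested.

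**Figure D3:**
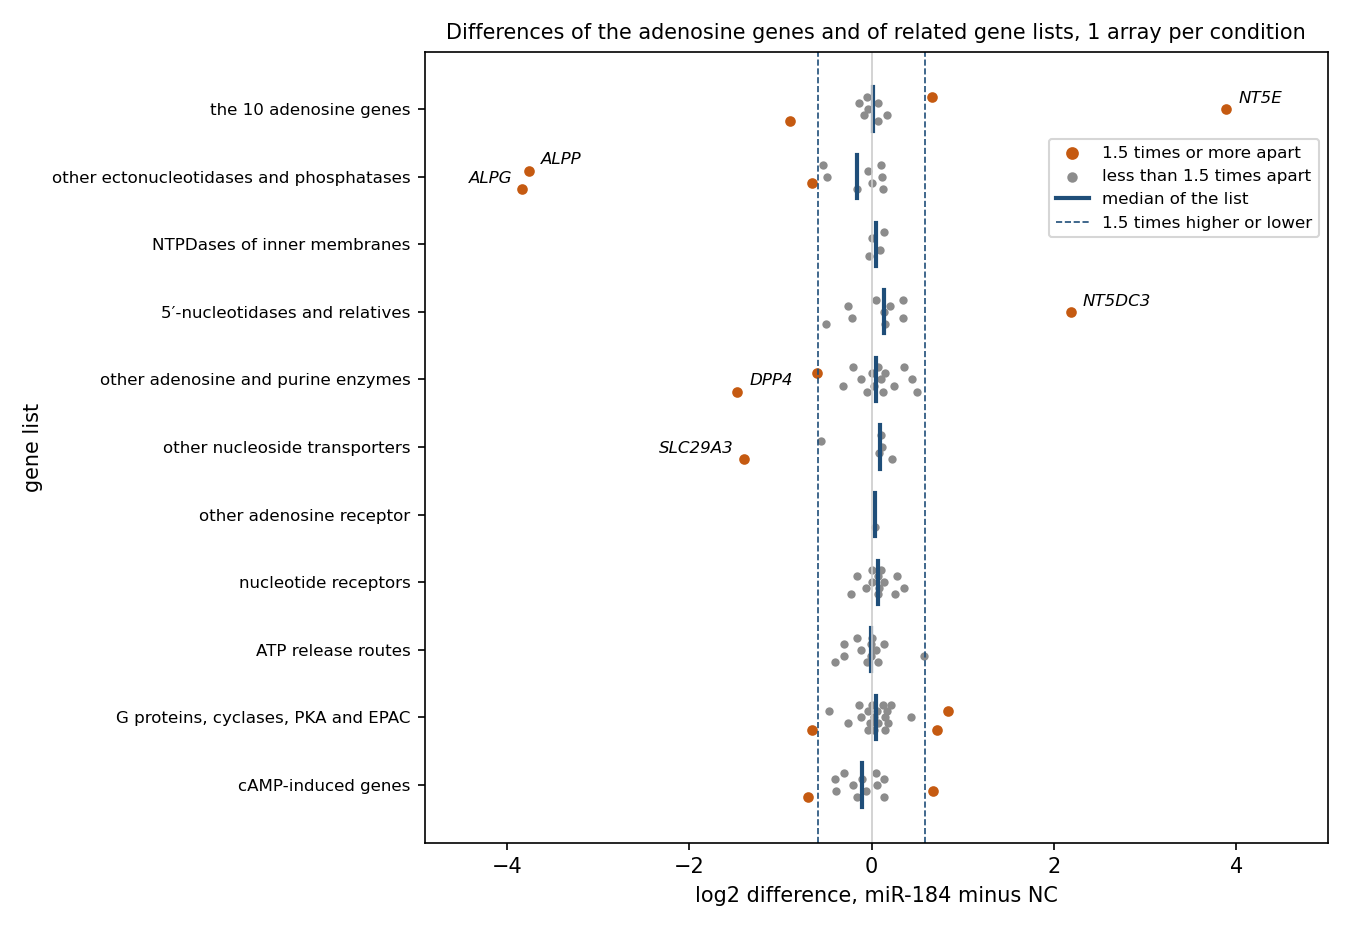
Log2 difference, miR-184 minus NC, of each gene (points) in the set of 10 adenosine genes and the 10 related lists, with the median of each list as a vertical bar and 1.5 times higher or lower as dashed lines. *NT5E* (3.89) and *NT5DC3* (2.18) lie far to the right, *ALPG* (-3.83) and *ALPP* (-3.76) far to the left, and most points lie between the dashed lines.

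Of 11 other ectonucleotidases and phosphatases, 3 were lower by 1.5 times or more and none higher, with a median of -0.16. Over all genes 4.16% were lower by that much, and 7.74% of those at or above the median signal. The 3 lower genes, *ALPP*, *ALPG* and *ENPP1*, were also the only 3 of the list with a signal that high. *ALPP* and *ALPG* encode placental and germ cell alkaline phosphatase, membrane enzymes that can release phosphate from AMP. *ALPP* read 10.08 with miR-184 and 13.85 with NC, and *ALPG* read 9.99 and 13.82. The 2 paralogs are nearly identical, so their features may read each other's transcripts and are not separate observations. *ENPP1*, which splits ATP into AMP and pyrophosphate, read 6.83 with miR-184 and 7.48 with NC (difference -0.65). The brightest of the other 8 were *ALPI* (3.75 against 4.28) and *ENTPD8* (3.94 against 3.83), close to the median feature.

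Among 5′-nucleotidases and their relatives, 1 of 10 measured genes was higher and none lower (median 0.14). The higher gene was *NT5DC3*, named for a 5′-nucleotidase domain, at 7.20 with miR-184 and 5.01 with NC (4.54 times). The brightest of the rest, *NT5C2* and *NT5C3A*, encode cytosolic nucleotidases and had differences of 0.35 and -0.51. None of 4 NTPDases of inner membranes was past 1.5 times, and their brightest, *ENTPD4* and *ENTPD7*, had differences of -0.03 and 0.13. Besides *NT5E*, which was chosen for its rise, *NT5DC3* was the only gene past 1.5 times upwards among the ecto- and 5′-nucleotidases measured. Over all genes 3.74% were higher by that much, and nothing is read from this count.

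The binding partner of adenosine deaminase at the cell surface was lower, as was *ADA*. *DPP4* encodes CD26, the peptidase that anchors deaminase to human cells, and read 9.21 with miR-184 and 10.69 with NC (difference -1.48, or 2.79 times lower). Of 16 measured enzymes of adenosine and purine metabolism in its list, *DPP4* and the mitochondrial adenylate kinase family gene *AK3* (-0.60) were lower and none was higher (median 0.05). *AHCYL1* (0.13) and the purine salvage gene *HPRT1* (0.10) were the brightest of the rest. Among 6 other nucleoside transporters only *SLC29A3*, which encodes the ENT3 transporter of inner membranes, was past 1.5 times, at 6.60 with miR-184 and 7.99 with NC (2.64 times lower). *SLC29A2* (0.08) and *SLC29A4* (0.22) were the brightest of the rest. Beside the counts of these lists, 3.74% of all genes were higher and 4.16% lower by 1.5 times or more. At or above the median signal the shares were 6.24% and 7.74%. The lists were chosen with earlier results of these data known, so nothing is read from the counts.

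The measured nucleotide receptor and ATP release genes were within 1.5 times of NC, beside 3.74% of all genes higher and 4.16% lower by that much. Of the 13 receptors 9, and of the 13 release genes 7, had a mean signal below the median of all genes. Differences were smaller there over all genes, with a standard deviation of 0.20 beside 0.46 at or above that median. None of 13 measured nucleotide receptors was past that threshold (median 0.07). The UTP and ATP receptor gene *P2RY2* read 7.18 with miR-184 and 7.08 with NC, and the UDP receptor gene *P2RY6* 7.58 and 7.22. None of 13 genes for ATP release routes was past it (median -0.01). The brightest, the ATP-releasing channel gene *PANX1*, was just short of it at 12.26 with miR-184 and 11.69 with NC (1.48 times higher), and *LRRC8D*, a subunit of volume-regulated channels, had a difference of -0.12.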

How the data were processed

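Per the paper, RNA went onto the Affymetrix Human Transcriptome Array 2.0, which was read in Command Console and normalized in Expression Console. The authors deposited normalized log2 signals for each feature. The sample labels instead describe an Agilent protocol with Cy3, and Agilent Feature Extraction 9.1 stands in the submitters' processing notes, but the features are named as on the Affymetrix array. No source used here gives the build of its annotation. No coordinates are printed for array features or their genes, only those of the mature microRNA.

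The 23730 of 65854 features that the platform annotation gives exactly 1 symbol were named and their symbols updated to RefSeq (GRCh38.p14), which changed 303. Where a gene had several features, that of highest mean signal was used. No filter and no further normalization were applied. The number of arrays, 1 per condition, limits the precision. Genes were counted at 1.5 times in either direction, and no test was made. The members and lists were chosen with earlier results of these data known. Named genes are all members, all list genes past 1.5 times, the 2 brightest others per list, the 5 largest rises among genes starting within 0.5 of *NT5E*, and its neighbours. The steps were run on simulated arrays with known changes added to bright features only. That checks the code, and not low features or the precision of these 2 arrays. Python 3.11.15, numpy 2.4.6, pandas 2.3.3, statsmodels 0.14.6 and matplotlib 3.10.9 were used.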

Additional observations from a re-analysis of the deposited data

How the results depend on the processing

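Quantile normalization, median centring of the differences and a loess correction for signal (span 0.3) were applied. Each of the 10 adenosine genes stayed on its side of the 1.5 times threshold under them. Averaging of the features of a gene was also applied, but it could not move these 10, which have 1 feature each. Across these settings the difference ranged from 3.85 to 3.98 for *NT5E*, from 0.62 to 0.75 for *ADK* and from -0.93 to -0.87 for *ADA*. Of the 44 list medians recomputed under these settings, the largest move was 0.0718, and the median of the 10 members ranged from -0.03 to 0.01. At a threshold of 2 times, 1 adenosine gene (*NT5E*) was higher and 0 were lower, 1 other pathway gene was higher and 4 were lower, and of all genes 220 were higher and 303 lower, since a stricter threshold takes fewer genes. Counts restricted to genes at or above the median signal stayed within 1.5 times of those given. No paired analysis was possible because each condition has 1 array.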

Other observations

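Most genes downstream of the adenosine receptors were within 1.5 times of NC. Of 22 measured genes for G proteins, adenylyl cyclases, protein kinase A and EPAC, 2 were higher by 1.5 times or more with miR-184 and 1 was lower (median 0.04), beside 3.74% and 4.16% of all genes. *PRKAR2A*, a regulatory subunit of protein kinase A, read 8.08 with miR-184 and 7.24 with NC. The genes for the closely related Gq-family subunits *GNA11* (0.72) and *GNAQ* (-0.66) lay on opposite sides of 0. The brightest of the rest, the Gi subunit gene *GNAI3* and the protein kinase A subunit gene *PRKAR1A*, had differences of 0.43 and 0.07. Of 13 measured genes known to be induced by cAMP, the phosphatase gene *DUSP1* was higher (6.68 against 6.01) and the nuclear receptor gene *NR4A2* lower (3.97 against 4.67), with a median of -0.11. *SIK1* (-0.40) and *PDE10A* (0.05) were the brightest of the rest. Of these 13 genes, 8 had a mean signal below the median of all genes, so their small differences say little.

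The protein-coding genes next to *NT5E* in the RefSeq order were within 1.5 times of NC. *TBX18*, on one side, was near the median feature at 3.11 with miR-184 and 3.09 with NC. *SNX14* (difference 0.39) and *SYNCRIP* (0.40), on the other side, were bright in both arrays.

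Some of the small differences had a step pattern. Exactly the same signal in both arrays, to within 1e-05, was found for 923 of 22368 genes (4.13%), including 7 of the 109 other pathway genes, such as *ENTPD5* at 6.16 and *GNAI2* at 6.82, and none of the 10 members. To within 1e-05 or closer, the difference of *ADORA1* was shared with 18 other genes. That of *ENTPD2* was shared with 9, that of *SLC29A1* with 6 and that of *ENTPD1* with 1. The differences of *NT5E*, *ADA* and *ADK*, and the small ones of *ENTPD3*, *ADORA2A* and *ADORA2B*, occurred in no other gene. The cause was not tested.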
